A study of Mus musculus with 6 samples.

Results

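The genes described here are 9 genes of the complement system, the network of plasma proteins that marks microbes and dying cells for removal. They encode the subunits of C1q (C1qa, C1qb and C1qc), the central component C3, factor B (Cfb), properdin (Cfp), the receptors of the fragments C3a and C5a (C3ar1 and C5ar1) and the C1 inhibitor (Serping1). They are 9 of the 51912 genes in the deposited table and were taken by symbol. Because they were chosen with earlier results of the same comparison in view, their differences between the groups are given as a description and are not evidence of an effect. The other complement genes came from a list of 51 that includes the 9.

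RNA sequencing was done on primary mouse fibroblasts after 48 h with the chemokine CXCL3 (3 libraries) or as control (3 libraries), all from mice aged 6 weeks. CXCL3 is a secreted chemokine whose known receptor is CXCR2. The labels give neither the dose, the organ the cells came from nor whether replicates were separate cultures, so p-values reflect the variation among these 6 libraries alone, part of which can be technical. Values are TPM, a length-corrected share of the transcripts of a library, which allow levels of different genes to be compared but keep no library depth, so the depth is unknown and no counting interval is given. Precision is judged from how far the 3 libraries of each group lie apart.

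Complement is started through 3 routes. In the classical route C1q, a bundle of A, B and C chains, binds antibody or altered surfaces and carries the proteases C1r and C1s, and the C1 inhibitor blocks these proteases. The lectin route uses collectins and ficolins with the MASP proteases, and in the alternative route factor B joins a fragment of C3 to make a convertase that properdin stabilizes. All of them cut C3, and the fragments C3a and C5a act on receptors of myeloid cells. In tissues C1q is made mainly by macrophages, and properdin and the fragment receptors are also typical of myeloid cells, whereas fibroblasts are a known source of C1 inhibitor, C1r, C1s, C3 and factor B. C3 and factor B are also made by macrophages.

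The libraries carried transcripts of fibroblasts and of macrophages, so the values are of whole cultures. The fibroblast markers Fn1 (2401 to 2662 TPM with CXCL3, 1880 to 3008 TPM in controls) and Col1a1 (567.0 to 632.6 TPM with CXCL3, 581.2 to 973.3 TPM in controls) were abundant, whereas Lum was at most 0.50 TPM and Fap at most 0.54 TPM. The macrophage markers Lyz2 (13115 to 13244 TPM with CXCL3, 13260 to 16166 TPM in controls) and Adgre1 (435.8 to 458.2 TPM with CXCL3, 363.1 to 507.1 TPM in controls) were abundant too. Fewer cells of a type and less RNA per cell cannot be told apart in such samples. Controls 2 and 3 stood apart from the other 4 libraries on the first principal component, which held 52.9% of the variance, and the division ran with transcript length. The Spearman correlation across genes of a library's deviation with transcript length was -0.50 in control 2 and -0.48 in control 3, against 0.20 to 0.45 in the other 4 libraries.

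C1q and the C1 inhibitor were lower in CXCL3 cultures than in controls, while C3, factor B and the anaphylatoxin receptors had overlapping values. The mean level in CXCL3 cultures was 55.4% of the control level for Serping1, 57.8% for C1qa, 73.0% for C1qc and 74.5% for C1qb. It was 89.8% for Cfp, 99.1% for C3, 104.3% for C5ar1, 109.9% for C3ar1 and 114.7% for Cfb. Of the 6 genes usually made by myeloid cells, 4 (the C1q genes and Cfp) were lower without overlap and 2 (C3ar1 and C5ar1) overlapped, with a median log2 fold change of -0.28. Of the 3 usually made by fibroblasts, 1 (Serping1) was lower without overlap and 2 (C3 and Cfb) overlapped, with a median of -0.01. Of all genes tested, 9.31% were lower without overlap. No test was made of a difference between these groups of genes, which were chosen with this contrast known.

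**Figure D1:**
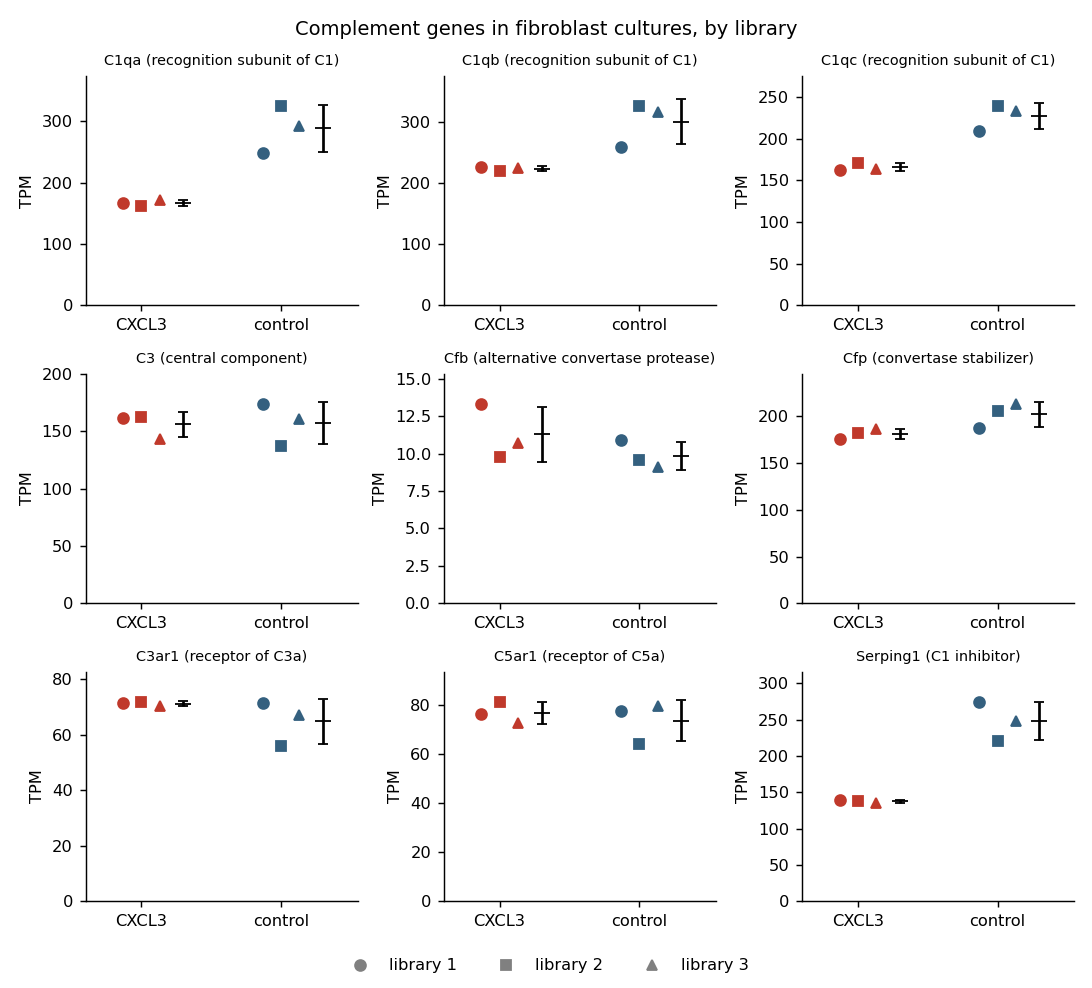
Level of each of the 9 genes in TPM (y axes, from 0) in the 3 CXCL3 libraries (red) and the 3 control libraries (blue), with symbols for the library number and the mean ± SD in black. All CXCL3 points lie below all control points for C1qa, C1qb, C1qc, Cfp and Serping1, and the points overlap for the other 4 genes.

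C1q is the recognition subunit of the classical route, and its chains are encoded by neighbouring genes on mouse chromosome 4 (GRCm38, all on the minus strand). C1qb (ENSMUSG00000036905) lies at 136880129 to 136886187, C1qc (ENSMUSG00000036896) at 136889804 to 136893065 and C1qa (ENSMUSG00000036887) at 136895917 to 136898803, within 18675 bases in all. The 250 bases before the RefSeq start of C1qb and C1qc are shown because these neighbours had nearly the same difference between the groups, and those before C3 because its level did not part the groups. Capitals mark matches to the motifs searched.
C1qb: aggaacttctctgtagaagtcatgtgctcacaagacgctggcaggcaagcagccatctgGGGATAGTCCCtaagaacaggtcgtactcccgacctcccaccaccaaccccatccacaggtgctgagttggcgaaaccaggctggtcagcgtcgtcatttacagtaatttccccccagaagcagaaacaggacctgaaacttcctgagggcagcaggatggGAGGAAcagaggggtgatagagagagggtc
C1qc: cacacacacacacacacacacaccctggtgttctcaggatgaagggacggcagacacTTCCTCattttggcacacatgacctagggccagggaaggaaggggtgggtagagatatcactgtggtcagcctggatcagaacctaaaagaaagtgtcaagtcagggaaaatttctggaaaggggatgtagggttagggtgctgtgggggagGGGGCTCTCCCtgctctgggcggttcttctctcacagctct
C3: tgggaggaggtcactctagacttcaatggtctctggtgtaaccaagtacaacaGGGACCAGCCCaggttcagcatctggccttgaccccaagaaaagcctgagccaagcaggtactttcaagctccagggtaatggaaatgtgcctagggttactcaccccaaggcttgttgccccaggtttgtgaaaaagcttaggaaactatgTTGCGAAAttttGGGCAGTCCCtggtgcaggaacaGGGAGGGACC
The sequences are from RefSeq on GRCm38.p6, read 5′ to 3′ on the gene's strand, from chr4:136886201-136886450, chr4:136892915-136893164 and chr17:57228137-57228386 (all minus strand). RefSeq promoters were found for 6 of the 9 genes, and none was found for C1qa, Cfb or Serping1.

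Both C1q windows held the core of the PU.1/ETS motif, GAGGAA, which PU.1 binds in myeloid cells: in C1qb it began 30 bases before the start, and in C1qc it lay on the opposite strand, from 193 bases before the start. GAGGAA was not found in the windows of C3, Cfp, C3ar1 and C5ar1, the other genes with a RefSeq promoter. The C3 window held a C/EBP match, TTGCNNAA, from 45 bases before the start. All 3 windows shown held the NF-kappaB letters, GGG and CC with any 5 bases between. On either strand, GAGGAA was found in 23.3% of the 32851 RefSeq windows of this length, TTGCNNAA in 9.56% and the NF-kappaB letters in 45.8%. In these 3 windows no match was found to the STAT letters TTCNNNGAA (7.02% of all windows), the interferon element, GAAA and GAAA with any 2 bases between (2.98%), the AP-1 letters TGANTCA (6.75%) or the TATA box TATAAA (12.4%). Several of the NF-kappaB matches overlap each other, and a match of letters is not a binding site.

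C1qa, the gene of the A chain, was at 166.7, 161.8 and 172.7 TPM in CXCL3 libraries 1, 2 and 3, against 248.6, 325.5 and 292.6 TPM in controls 1, 2 and 3. Its groups did not overlap, and the lowest control was control 1. The log2 fold change was -0.78 ± 0.10 (SE), on the log2(TPM + 1) scale that is used for all fold changes here. Counted from the most negative fold change, it ranked 96 among the genes tested.

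C1qb, the gene of the B chain, was at 227.0, 219.6 and 224.5 TPM with CXCL3 and at 258.7, 326.5 and 316.0 TPM in controls. C1qc, the gene of the C chain, was at 162.4, 171.0 and 164.2 TPM with CXCL3 and at 209.7, 239.4 and 232.6 TPM in controls. Neither overlapped between the groups, and in both control 1 was the control nearest to the CXCL3 libraries. Their log2 fold changes were -0.42 ± 0.09 and -0.45 ± 0.07. The CXCL3 libraries lay close together, with SDs of 3.79 to 5.46 TPM over the 3 genes, against 15.5 to 38.6 TPM among controls.

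The make-up of the C1q transcripts differed with the group as well. The ratio of C1qa to C1qb within a library was 0.735, 0.737 and 0.769 with CXCL3, against 0.961, 0.997 and 0.926 in controls. The longest transcripts of these genes have 1040 and 1088 bases and a GC content of 59.52% and 57.35%. The part of length or GC content in the ratio was not tested. The ratio of C1qc to C1qb overlapped, at 0.742 ± 0.033 with CXCL3 and 0.760 ± 0.044 in controls (SD, n = 3 each). C1qa made up 30.0% ± 0.736 of the summed C1q TPM with CXCL3 and 35.3% ± 1.03 in controls. The sum itself was 556.6 ± 4.55 TPM with CXCL3 and 816.5 ± 89.7 TPM in controls. None of the 50-base words of the C1q transcripts occurred in transcripts of another gene, so reads of this length from one chain have no exact match in another.

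**Figure D2:**
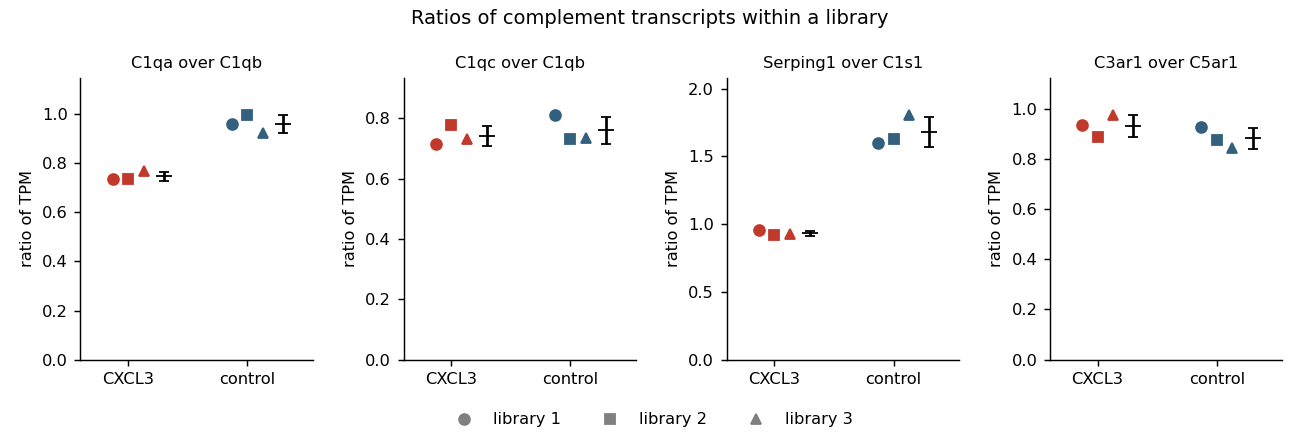
Ratios of TPM within each library (y axes, from 0) for 4 pairs of complement genes in CXCL3 (red) and control (blue) libraries, with the mean ± SD in black. C1qa over C1qb and Serping1 over C1s1 do not overlap between the groups, at 0.735 to 0.769 and 0.919 to 0.955 with CXCL3 against 0.926 to 0.997 and 1.60 to 1.81 in controls, while C1qc over C1qb and C3ar1 over C5ar1 overlap.

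Serping1, the gene of the C1 inhibitor (ENSMUSG00000023224, chromosome 2, 84765387 to 84775444, minus strand), was at 139.6, 138.1 and 134.8 TPM with CXCL3, against 274.7, 221.3 and 248.7 TPM in controls. The groups were far apart, and here control 1 was the highest control and not the lowest. The log2 fold change was -0.84 ± 0.09, and it ranked 81 from the most negative. Set against the protease it inhibits, the ratio of Serping1 to C1s1 was 0.955, 0.919 and 0.926 with CXCL3 and 1.60, 1.63 and 1.81 in controls. C1s1, the gene of C1s, was at 146.2, 150.3 and 145.6 TPM with CXCL3 and at 171.6, 135.9 and 137.8 TPM in controls, with a log2 fold change of -0.0019 ± 0.098. Serping1 was also lower relative to the geometric mean of 10 fibroblast markers, at 1.76 ± 0.022 with CXCL3 and 3.04 ± 0.205 in controls.

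C3, whose cleavage is the point where the routes meet (ENSMUSG00000024164, chromosome 17, 57203970 to 57228136, minus strand), was at 161.9, 163.0 and 143.7 TPM with CXCL3, against 174.2, 137.8 and 160.7 TPM in controls. The lowest and the highest library were both controls. Its log2 fold change was -0.01 ± 0.10, and it took either sign under other settings, from -0.19 with the trend in transcript length and GC content removed to 0.07 without control 1. Cfb, the gene of the protease factor B (ENSMUSG00000090231, chromosome 17, 34856374 to 34862518), was low, at 13.3, 9.80 and 10.7 TPM with CXCL3 and 10.9, 9.54 and 9.09 TPM in controls. Its groups overlapped, and its log2 fold change was 0.17 ± 0.14. Of its 50-base words 73.0% also occur in Gm20547, an overlapping gene on the same strand that was at most 0.74 TPM, so the split of reads between them is uncertain.

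Cfp, the gene of properdin (ENSMUSG00000001128, chromosome X, 20925454 to 20931555), was at 175.5, 181.9 and 186.0 TPM with CXCL3, against 187.1, 205.1 and 213.0 TPM in controls. The groups touched without overlapping, since control 1 lay just above CXCL3 library 3. The log2 fold change was -0.15 ± 0.07, and -0.05 when control 1 was the only control.

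The receptor genes had overlapping levels. C3ar1, the gene of the C3a receptor (ENSMUSG00000040552, chromosome 6, 122847138 to 122856161), was at 71.5, 72.0 and 70.5 TPM with CXCL3 and at 71.7, 56.0 and 67.0 TPM in controls. C5ar1, the gene of the C5a receptor (ENSMUSG00000049130, chromosome 7, 16246743 to 16259540), was at 76.4, 81.2 and 72.4 TPM with CXCL3 and at 77.3, 63.8 and 79.4 TPM in controls. Both overlapped, and in both control 2 was the lowest library. Their log2 fold changes were 0.14 ± 0.10 and 0.06 ± 0.10, and both turned negative in some settings (C3ar1 -0.0066 without controls 2 and 3, C5ar1 -0.03 without control 2).

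The order of the levels differed between the groups. In CXCL3 cultures C1qb had the highest mean (223.7 ± 3.79 TPM, SD, n = 3), followed by Cfp (181.1 ± 5.29), C1qa (167.1 ± 5.46), C1qc (165.8 ± 4.54) and C3 (156.2 ± 10.8). Below them came Serping1 (137.5 ± 2.45 TPM), C5ar1 (76.6 ± 4.42), C3ar1 (71.3 ± 0.744) and Cfb (11.3 ± 1.83). Among these libraries the ranges of C1qa and C1qc overlapped, and so did those of C1qc and C3. In controls the means ran from C1qb (300.4 ± 36.5 TPM) through C1qa (288.9 ± 38.6), Serping1 (248.2 ± 26.7), C1qc (227.2 ± 15.5), Cfp (201.7 ± 13.3) and C3 (157.6 ± 18.4) to C5ar1 (73.5 ± 8.46), C3ar1 (64.9 ± 8.07) and Cfb (9.83 ± 0.925). There each neighbouring pair overlapped in range down to C1qc and Cfp, and so did C5ar1 and C3ar1. Serping1 stood below C3 with CXCL3 and above it in controls, without overlap in either group.

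In the limma fit across all 13139 genes tested, C1qa and Serping1 passed an adjusted p of 0.05 (adjusted p = 0.0493 and 0.0293 with Benjamini-Hochberg adjustment). That is 2 of the 9 genes, both lower, where 0.129% of all genes tested passed in this direction. Since the genes were chosen with this contrast known, nothing is read from the count. The adjusted p of C1qc was 0.110 and that of C1qb 0.206, and those of the other 5 lay between 0.447 and 0.971. The groups did not overlap for 5 of the 9, all lower, where 9.31% of all genes did so in that direction. The median log2 fold change of the 9 was -0.15, beside 0.07 for all genes tested.

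Both calls were lost when single libraries were left out. C1qa lost its call without control 2 (adjusted p = 0.0983) or control 3 (0.239), and without any 1 CXCL3 library (0.288 to 0.308). Serping1 lost it without control 3 (0.129) and without any 1 CXCL3 library (0.175 to 0.227). Without control 1, C1qb, C1qc and Cfp passed as well (0.00408, 0.00409 and 0.0249), in a fit where 32.4% of all genes passed.

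The longest transcripts of the C1q genes have 1040 to 1203 bases, and the controls that stood apart in transcript length had the highest C1q values. Set against control 1 alone, whose spread is then assumed to be that of the CXCL3 libraries, the log2 fold change was -0.57 for C1qa, -0.21 for C1qb, -0.34 for C1qc and -0.99 for Serping1. With each library's trend in transcript length and GC content removed, it was -0.72, -0.35, -0.39 and -0.80. The difference of the C1q genes was thus smaller against control 1 and that of Serping1 larger, and all 4 kept a negative sign in all 19 alternative settings. Where the groups do not overlap, leaving out a library cannot turn the sign. Neither can another pseudocount, filter or variance model, library weights or a replicate block. Only the other scalings, leaving out mitochondrial genes and removing the length and GC trend could have turned it. The part of transcript length in these differences was not tested.

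**Figure D3:**
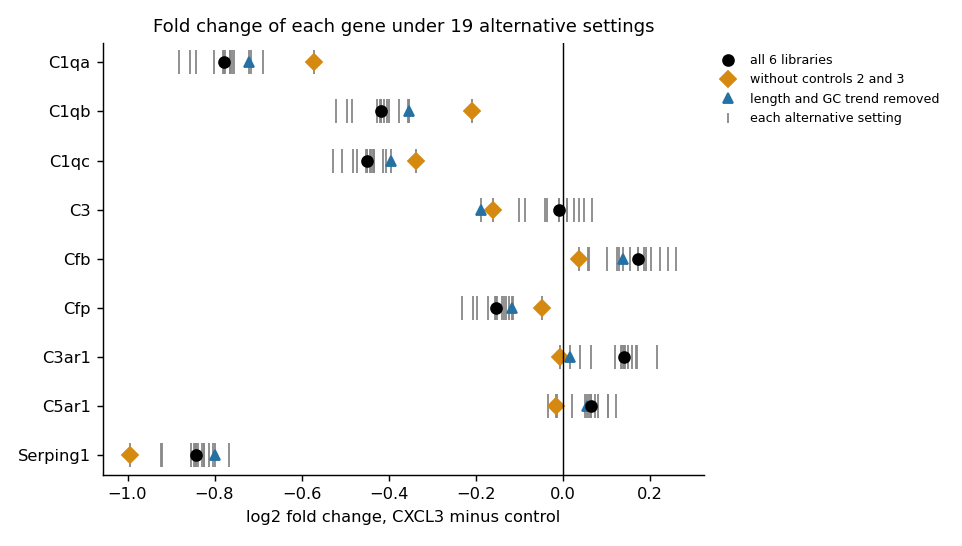
Log2 fold change of the 9 genes, CXCL3 minus control (x axis), in the fit with all 6 libraries (black circles) and under 19 alternative settings (grey ticks), with the fit without controls 2 and 3 (orange diamonds) and with the length and GC trend removed (blue triangles) marked. C1qa spans -0.88 to -0.57 and Serping1 -0.99 to -0.77, while C3, C3ar1 and C5ar1 have ticks on both sides of 0.

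Macrophage content was compared through 14 markers, of which 13 passed the filter and 0 passed the test (limma, lowest adjusted p = 0.158, for Fcer1g; 2 with an unadjusted p under 0.05). Over all genes tested 0.160% passed, and 1522 of 13139 had an unadjusted p under 0.05, so neither count stands out from the background. Their geometric mean was 102.4, 97.6 and 104.4 TPM with CXCL3 and 104.8, 92.5 and 103.0 TPM in controls, so the groups overlapped. Their summed level was 15463 to 15571 TPM with CXCL3 and 15718 to 18823 TPM in controls, a sum made mostly of Lyz2. The groups did not overlap for Fcer1g (422.4, 427.0 and 422.2 TPM with CXCL3, 501.3, 623.3 and 625.2 TPM in controls), Tyrobp and Lyz2, all lower, and for Mrc1, which was at 18.1, 16.9 and 16.0 TPM with CXCL3 and 13.4, 11.3 and 9.80 TPM in controls. Beside these, 9.31% of all genes tested were lower without overlap, and the share higher without overlap was not counted. Cx3cr1, the marker below the filter, did not overlap either, at 0.45, 0.39 and 0.49 TPM with CXCL3 and 1.38, 1.23 and 0.97 TPM in controls. Set against the geometric mean of these markers, C1qa was at 1.63, 1.66 and 1.65 with CXCL3 and 2.37, 3.52 and 2.84 in controls. On the same scale C1qb and C1qc did not overlap either, while Cfp, C3ar1 and C5ar1 did. The longest transcripts of Fcer1g, Tyrobp and Lyz2 have 683, 597 and 1316 bases, that of Mrc1 5374 and that of Cx3cr1 4493. Other short and long markers overlapped. The parts of macrophage number and of transcript length in the C1q difference and in these ratios were not tested.

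Of 8 neutrophil markers 3 passed the filter: S100a8, at 529.1 to 581.6 TPM with CXCL3 and 552.3 to 668.7 TPM in controls, Csf3r, at most 5.0 TPM, and Camp, at most 3.83 TPM. All 3 overlapped between the groups. The neutrophil gene Ly6g was at most 0.08 TPM. Of 5 dendritic cell markers 1 passed, Zbtb46, at most 2.07 TPM, and of 5 lymphocyte markers 0 did. The neutrophil gene Retnlg was listed at 0 in all 6 libraries, as were Flt3 and Cd209a of dendritic cells and Cd3e, Cd3d and Nkg7 of lymphocytes. Neutrophils are another known source of properdin. The hepatocyte marker Alb, for the liver that makes most plasma complement, was at most 0.36 TPM. Of the other lists, epithelial markers were at most 1.10 TPM, endothelial markers at most 1.60 TPM and mast cell markers at most 0.17 TPM. The 4 pan-leukocyte markers summed to 350.9 to 361.4 TPM with CXCL3 and 322.1 to 367.3 TPM in controls, and 0 of them passed the limma test (0 with an unadjusted p under 0.05). Of 12 fibroblast markers, 10 passed the filter and 0 the limma test (1 with an unadjusted p under 0.05), and their sum was 3920 to 4287 TPM with CXCL3 and 3447 to 5300.2 TPM in controls. Of these 10 only Dcn did not overlap between the groups, at 282.51 to 287.82 TPM with CXCL3 and 299.95 to 327.84 TPM in controls. Lum, below the filter, did not overlap either, at 0.06 to 0.15 TPM with CXCL3 and 0.30 to 0.50 TPM in controls. Beside these, 9.31% of all genes tested were lower without overlap.

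Of the 51 complement genes listed, 24 passed the filter of 1 TPM in at least 3 libraries and 27 did not, of which 10 were listed at 0 in every library. The 9 genes described all passed. Of the other 15, 0 passed the limma test in either direction (adjusted p = 0.284 to 0.994, 1 with an unadjusted p under 0.05), against 0.160% of all genes tested. Their median log2 fold change was -0.01, with 9 negative and 6 positive. By route, 6 of 10 listed genes of the classical, 3 of 8 of the lectin and 3 of 4 of the alternative route passed the filter. Cfd, the gene of the protease factor D of the alternative route, did not, at 0.11 TPM or less, and neither did any of the 7 genes of the terminal pathway, at most 0.88 TPM.

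Around C1q, the protease gene C1ra was at 22.4 ± 0.701 TPM with CXCL3 and 21.3 ± 1.87 TPM in controls. C2, the protease that C1s cuts, was at 24.9 ± 7.42 TPM with CXCL3 and 23.2 ± 3.38 TPM in controls. Of their 50-base words, 50.8% of C1ra are shared with C1rb or Gm18840, 35.1% of C1s1 with C1s2 or Gm16567 and 41.5% of C2 with Gm20547 or Zbtb12, so their levels depend on how reads were divided. C4a and C4b were at most 0.88 TPM. In the lectin route, the ficolin gene Fcna was at 9.66 ± 1.17 TPM with CXCL3 and 10.1 ± 0.459 TPM in controls. The protease gene Masp1 was at 4.49 ± 0.450 TPM with CXCL3 and 3.85 ± 0.899 TPM in controls, and the collectin gene Colec11 at 2.96 ± 2.10 TPM with CXCL3 and 4.83 ± 1.74 TPM in controls. None of these differed by more than the spread between libraries. Mbl1, Mbl2, Fcnb and Colec10 were listed at 0 throughout.

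Among the other receptors, the integrin chains of complement receptor 3 were high. Itgam was at 193.5 ± 6.42 TPM with CXCL3 and 160.3 ± 44.9 TPM in controls, and Itgb2 at 142.6 ± 7.98 TPM with CXCL3 and 144.5 ± 25.8 TPM in controls. Of the 50-base words of Itgam 66.3% also occur in the overlapping Gm49368 (mean 8.76 TPM). Vsig4, a C3b receptor of tissue macrophages, passed the filter only through the controls, at 0.85, 0.65 and 0.38 TPM with CXCL3 and 1.07, 1.03 and 1.09 TPM in controls. Itgam passed without control 1 (log2 fold change 0.52, adjusted p = 0.00485), but its fold change was -0.13 when control 1 was the only control.

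Among the regulators that protect the cell's own surface, Cr1l (Crry, a mouse inhibitor of C3 convertases) was at 54.4 ± 1.29 TPM with CXCL3 and 58.5 ± 2.98 TPM in controls. Cd55, which speeds the decay of convertases, was at 55.6 ± 9.20 TPM with CXCL3 and 46.0 ± 7.55 TPM in controls. Cd59a, which blocks the membrane attack complex, was at 36.7, 38.5 and 41.0 TPM with CXCL3, against 46.5, 47.6 and 47.7 TPM in controls. Its groups did not overlap, with a log2 fold change of -0.28 ± 0.08, and it did not pass (adjusted p = 0.284), although it did without control 1 (0.0215). Clu and Cd59b had means of 3.34 and 3.64 TPM over the 6 libraries and did not pass.

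**Figure D4:**
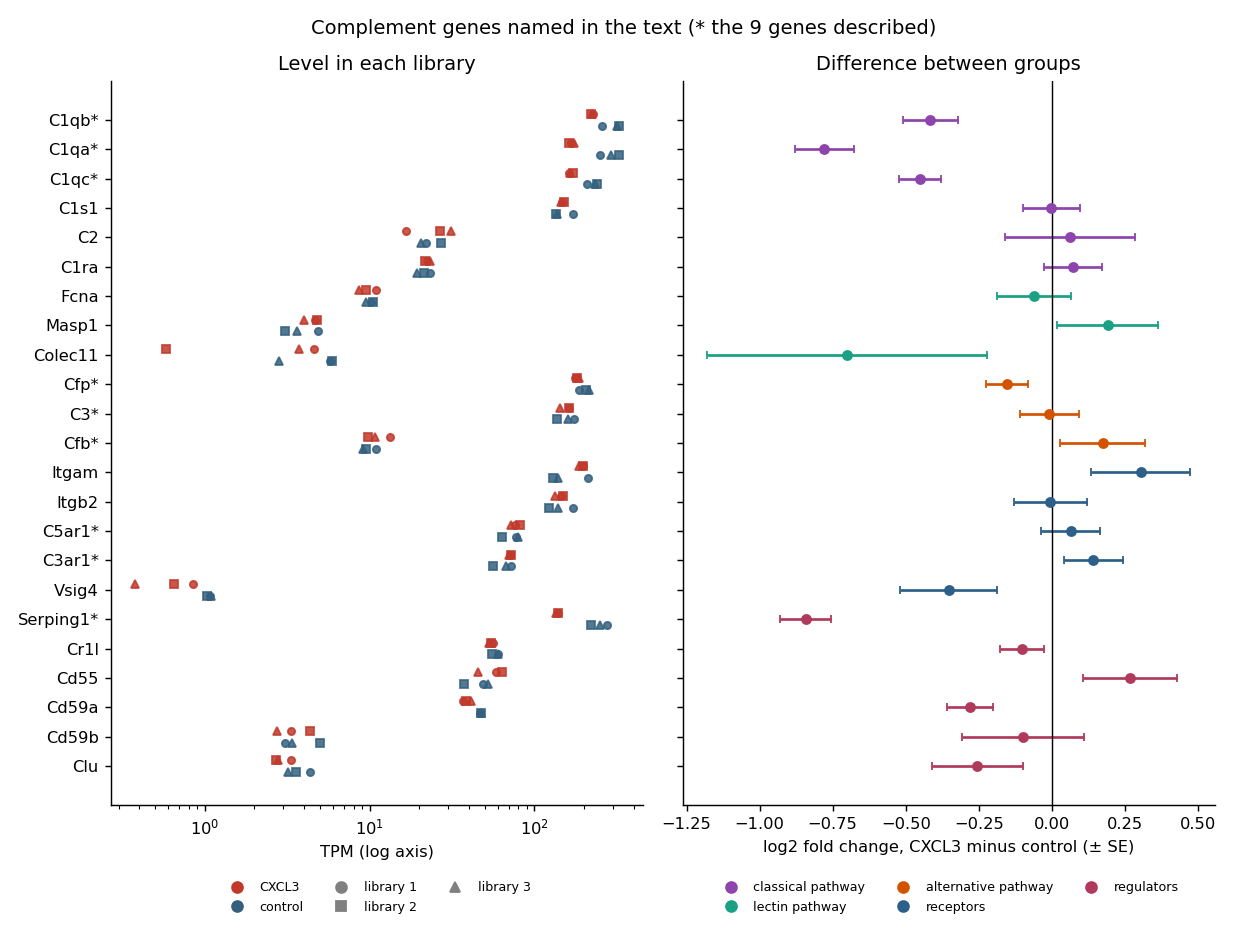
The complement genes named in the text that passed the filter, grouped by step. The left panel gives the TPM of each library on a log axis (CXCL3 red, control blue), and the right panel the log2 fold change, CXCL3 minus control, with its SE. C1qa and Serping1 stand at -0.78 and -0.84, C1qb and C1qc at -0.42 and -0.45, and the widest error is that of Colec11.

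The genes most like 3 of the 9 in their pattern were found by the root mean square difference over the 6 libraries of log2(TPM + 1) centred on each gene's mean. Nearest to C1qa were the transferrin gene Trf (0.049), Ctla2a (0.058), the haptoglobin gene Hp (0.091), the apolipoprotein E gene Apoe (0.096) and Cyp4f18 (0.099), all nearer than C1qc (0.180) and C1qb (0.185). The measure is not scaled for the size of a difference. These neighbours had log2 fold changes of -0.84 to -0.72, against -0.45 for C1qc and -0.42 for C1qb. In all C1q genes control 1 was the lowest control and control 2 the highest. Nearest to Serping1 were Ugt1a1 (0.103), A930004D18Rik (0.103), Dio3 (0.105), the smooth muscle actin gene Acta2 (0.115) and the collagen gene Col3a1 (0.121), with C1qa at 0.208. Ugt1a1, A930004D18Rik and Dio3 were at 0.647 to 1.25 TPM with CXCL3 and 2.15 to 3.02 TPM in controls, so their patterns rest on low values, and Ugt1a1 shares exons with other Ugt1a genes. Ugt1a1 also passed the filter only through the controls, so its likeness to Serping1 was in part fixed by the filter. Nearest to C3 were Ift52 (0.024), Trip12 (0.028), Sqor (0.030), E2f5 (0.030) and Brsk1 (0.030), and among the 9 genes C5ar1 (0.064) and C3ar1 (0.091). C3, C5ar1 and C3ar1 were all lowest in control 2.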

How the data were processed

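Total RNA of primary mouse fibroblasts was sequenced in 3 CXCL3 and 3 control libraries, grouped by the labels. The table the authors deposited gives TPM of 51912 genes, a share within a library that keeps no depth and whose columns sum to between 984281 and 986705 TPM. The submitters' processing notes name fastp, HISAT, RSEM and GRCm38.p5; tool versions, annotation and use of strand: not given in the sources used here. Identifiers were matched to GENCODE mouse M21 (51633 symbols). Genes with at least 1 TPM in at least 3 of 6 libraries (13139) entered limma 3.58.1 (R 4.3.3; eBayes with trend) as log2(TPM + 1). Differences are CXCL3 minus control, tests two-sided, and p-values adjusted by Benjamini-Hochberg over every gene tested, at a threshold of 0.05; the scale understates changes of low genes. With 3 libraries a group the smallest exact permutation p is 0.1, and none was computed. The fit was tested on simulated data.

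The 9 genes, the complement and marker lists and the alternatives were chosen with earlier results of these data known. Named were the 9 genes, up to 3 further genes of each step with the highest mean TPM, any that passed, the 5 protein-coding genes most like C1qa, C3 and Serping1, and markers; Clu, Cd59b, Cfd, Mrc1, Cx3cr1, Csf3r, Camp, Zbtb46, the markers near 0 and the genes at 0 were added after their values were seen. Another listed gene is included in counts and not reported here. Alternatives were other pseudocounts (0.1 and 5), no filter and one of 5 TPM, other scalings, no mitochondrial genes, other variance models, library weights, a replicate block, removal of the length and GC trend, and leaving out libraries.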

Additional observations from a re-analysis of the deposited data

How the results depend on the processing

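With all 6 libraries 21 genes passed in the limma fit, 2 of them complement genes. The number of genes was 0 with no filter (1928 with an unadjusted p under 0.05), 1 with an untrended eBayes, 5 with median-of-ratios scaling, 1446 with library weights, 43 after removal of the trend in length and GC and 84 without controls 2 and 3. It was 0 to 4254 when 1 library was left out, with 0 without control 3, CXCL3 library 1 or CXCL3 library 2 (875, 765 and 799 with an unadjusted p under 0.05). The number of complement genes was 0 with no filter and with an untrended eBayes, and 5 with library weights (C1qa, C1qb, C1qc, Itgam and Serping1). It was 1, Serping1, with a pseudocount of 0.1, median-of-ratios scaling, quantile normalization and without mitochondrial genes, and 0 to 8 when 1 library was left out. The replicate block gave 12 genes, of which 1 was a complement gene (Serping1, adjusted p = 0.0455; C1qa 0.0581). The labels do not say whether libraries with the same number were paired. The correlations of their deviations were 0.12, -0.011 and 0.077. CXCL3 libraries 1 and 2 both correlated best with control 1, and CXCL3 library 3 with control 2. These correlations run over all genes, which the division by transcript length also moved, so they cannot decide the pairing. Over the 19 alternatives C1qa passed in 7 and Serping1 in 13. C1qa lost its call with median-of-ratios scaling (0.164), quantile normalization (0.0890), a pseudocount of 0.1 (0.0542) and without mitochondrial genes (0.0522), and both lost it with no filter (0.170 and 0.107) and with an untrended eBayes (0.165 and 0.117). The cause was not tested. Genes that did not pass took the other sign as follows. With median-of-ratios scaling C1ra was at -0.0037, C2 at -0.013 and C5ar1 at -0.013. With quantile normalization C1ra was at -0.0036, C1s1 at 0.028, C2 at -0.0013, C3 at 0.025 and Itgb2 at 0.016. Without mitochondrial genes C1s1 was at 0.016, C3 at 0.0097 and Itgb2 at 0.012, and with library weights they were at 0.073, 0.037 and 0.081. Without controls 2 and 3, C1ra was at -0.048, C3ar1 at -0.0066, C5ar1 at -0.014, Cd59b at 0.13, Itgam at -0.13 and Masp1 at -0.092. Leaving out 1 library gave ranges of -0.061 to 0.11 for C1s1, -0.12 to 0.31 for C2, -0.10 to 0.067 for C3, -0.033 to 0.12 for C5ar1, -0.24 to 0.069 for Cd59b, -0.14 to 0.014 for Fcna and -0.12 to 0.13 for Itgb2. Genes under the filter had no value in some settings. Depth cannot be judged from TPM.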

Other observations

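Among the neutrophil markers, S100a8 was at 555.6, 529.1 and 581.6 TPM with CXCL3 and at 552.3, 668.7 and 581.0 TPM in controls, whereas S100a9, the gene of its usual protein partner, was at 0.23, 0.23 and 0.71 TPM with CXCL3 and at 0.25, 0 and 0 TPM in controls. Among the acinar markers, Cela1 was at 23.4 to 26.1 TPM with CXCL3 and 25.3 to 27.3 TPM in controls, whereas Cpa1 was at most 0.05 TPM and Amy2b was listed at 0 in all 6 libraries.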
